A study of Mus musculus with 4 samples.

Results

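Neurospheres of the Dll1-5 mutant line were compared with wild-type neurospheres, gene by gene. The comparison rests on both arrays of the line, 2 of the 4 arrays of the series. Each array carried mutant RNA in one dye and wild-type RNA in the other: the mutant was in Cy5 (red) in replicate 1 and in Cy3 (green) in replicate 2. Neurospheres are floating clusters grown from neural stem cells, kept here without serum and with the growth factor EGF. All cells, mutant and wild-type, derived from mice of a cross between 129/Sv and C57BL/6, and the wild-type cells are labelled as lines belonging with the Dll1-5 lines. Neither the ages of the mice, the part of Dll1 that the mutants lack nor the number of clones in a line is given in the sources used here. The design text describes 2 biological replicates of RNA pooled from 3 preparations, each hybridised with swapped dyes, but the line has 2 arrays. Whether both arrays hold the same pools is not settled by that text, and they were read as 1 pooled replicate of the line. No p-value is therefore given, and the error (±) is the distance of each array from the mean of both, which on that reading is technical. A second mutant line, Dll1-3, was measured the same way against wild-type RNA and is given beside Dll1-5 for some genes and lists. The wild-type RNA may be shared by both comparisons, so like values in both lines may not be independent.

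Dll1 is a membrane ligand of Notch receptors. Binding between neighbouring cells releases the intracellular domain of the receptor, which joins the DNA-binding protein RBPJ and switches on repressors of the Hes and Hey families. In the developing brain this signal holds progenitors back from becoming neurons and favours glial fate.

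Each value is the log2 of mutant signal divided by wild-type signal, after background correction and dye normalisation within each array, so that 1 is a 2-fold difference. Of 41174 probes, 32849 passed the filter, with mutant or wild-type RNA well above background on both arrays, and they stood for 22101 genes. A gene took the value of its brightest passing probe, and 7279 genes had more than 1. Across genes, the ratios of both arrays had a Pearson r of 0.914 (genes are not independent replicates), and the median distance of an array from the mean was 0.07. In Dll1-5, 694 genes (3.14%) were at least 2-fold higher than wild type on both arrays, 850 (3.85%) were at least 2-fold lower, which makes 1544 (6.99%) in either direction, and none was 2-fold in opposite directions. At least 4-fold differences were found for 82 higher and 174 lower genes, and at least 8-fold differences for 17 and 41. Bright genes supplied most calls: of the 7367 genes in the brightest of 3 equal intensity classes 5.04% were higher and 6.47% lower, against 0.75% and 0.31% in the dimmest. Since bulk RNA was measured, fewer cells of a type and less RNA per cell cannot be told apart.

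**Figure D1:**
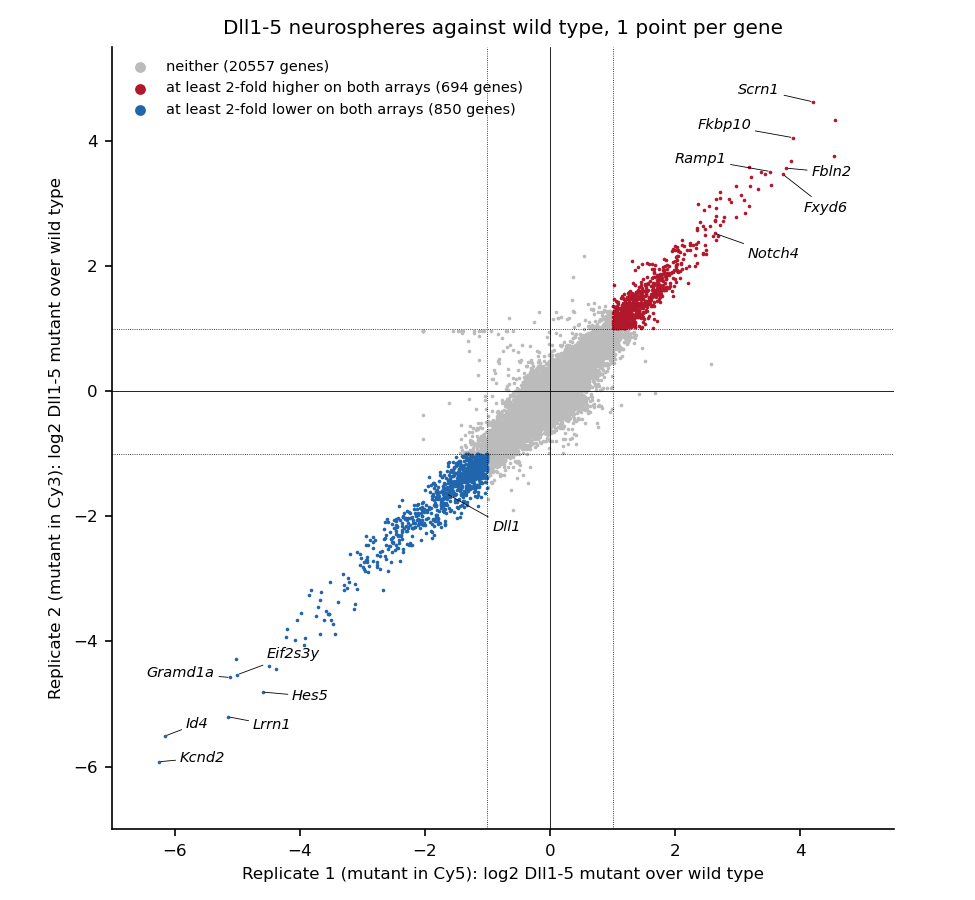
Log2 ratio of Dll1-5 mutant over wild type on replicate 1 (horizontal axis) and replicate 2 (vertical axis), 1 point per gene, with dotted lines at 2-fold. The 694 red and 850 blue genes lie along the diagonal, Kcnd2 and Id4 at the low end and Scrn1 at the high end, while a row of grey points near 1 on the vertical axis is made of genes with saturated spots. The unlabelled points beside Scrn1 and Fkbp10 are entries named only by the array file.

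Dll1 itself was 3.13-fold lower in the mutant RNA, at -1.65 on replicate 1 and -1.64 on replicate 2. The probe, on chromosome 17 from 13371312 to 13371371 (array file coordinates, build not given in the sources used here), remained well above background in mutant RNA on both arrays. In the Dll1-3 line the same probe stood at -3.31 and -3.22. Both lines were below wild type on every array, Dll1-3 by more. With median centring in place of loess the Dll1-5 arrays moved apart, to -0.61 and -2.34, around a mean of -1.47. Whether the probe lies in a deleted part of the gene is not given, so it checks the labels only as far as the transcript it detects.

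Of the 8 listed Notch ligands, each of which passed the filter, 2 (25%, against 3.85% of all genes) were at least 2-fold lower and none higher, with a median of 0.02 against 0.01 over all genes. After median centring none of the 8 was past 2-fold on both arrays. Over all genes that setting cut the calls from 694 to 297 higher and from 850 to 385 lower. Besides Dll1, the lower member was Dll3, a ligand that acts inside the cell that makes it, at -1.71 and -1.61. Dner, a neuronal ligand-like protein, was at -0.71 and -0.88. Jag1, a ligand of the Jagged class, was at 0.78 and 0.58 and its other probe at 0.14. The sign thus differed between members. Dll4, a ligand best known from blood vessels, was at 0.39 and 0.59 in Dll1-5 and at -0.50 and -0.32 in Dll1-3, and Jag2 was at 0.34 and 0.24. Dlk1 and Dlk2, atypical ligands, lay between -0.17 and 0.19.

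Among the receptors, Notch4 stood apart, 5.96-fold higher at 2.63 and 2.52 (mean 2.58 ± 0.05), against 0.57 and 0.59 in Dll1-3. Its net signal was 1624 in mutant and 83.7 in wild-type RNA on replicate 1, and 645 and 206 on replicate 2. Mutant signal was the higher one in either dye. Notch3 was lower, at -0.84 and -1.02, Notch1 lay at -0.62 and -0.55, and Notch2 at -0.18 and -0.27, while its other probes ranged from -0.16 to 0.06. Notch4 was the 1 receptor of 4 (25%, against 3.14% of all genes) past 2-fold on both arrays.

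The repressors that Notch switches on differed among themselves. Hes5, the main Hes gene of neural progenitors, was 26.0-fold lower in Dll1-5, at -4.59 and -4.81 (mean -4.70 ± 0.11), and close to that in Dll1-3, at -4.89 and -5.01. The probe lies on chromosome 4 from 153454601 to 153454660 in the array file's coordinates. Hey1, a related repressor, was at -1.97 and -1.93, against -3.93 and -3.66 in Dll1-3. Hes1, which many cell types express, was instead above wild type, at 0.50 and 0.37, and Hes6, which opposes Hes1 and promotes neuronal differentiation, was at 0.59 and 0.82 with its other probe at 0.71. The Hey2 probe was detected in wild-type RNA alone, which makes the gene at least 1.54-fold lower. Of 9 Hes and Hey genes, 2 (22.2%, against 3.85% of all genes) were at least 2-fold lower and none higher. Heyl, Hes2, Hes3 and Hes7 lay between -0.03 and 0.36 on both arrays.

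The 250 bases before the start of Hes5 are shown because the gene had the lowest ratio of the Notch pathway and its promoter is a textbook target of RBPJ. They come from RefSeq (GRCm38.p6, chr4:154960673-154960922, plus strand), and capitals mark the letters GTGGGAA, a core sequence that RBPJ binds, read on either strand.
Hes5: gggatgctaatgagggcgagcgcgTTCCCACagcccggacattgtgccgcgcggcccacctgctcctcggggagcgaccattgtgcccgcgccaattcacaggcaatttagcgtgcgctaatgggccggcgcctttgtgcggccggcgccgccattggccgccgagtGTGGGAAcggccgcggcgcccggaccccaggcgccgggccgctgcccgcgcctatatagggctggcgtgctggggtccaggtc
The window held 2 matches in opposite orientation, from 226 to 220 and from 83 to 77 bases before the start. Of 27025 genes with a promoter window, 6.18% held the letters. Among the Hes and Hey genes 4 had a window and 3 of them held a match, namely Hes5, Hes7 and Hey2. Hey1 had no window. None of the 8 ligands or 4 receptors held a match. Among processing genes 2 of 19 (10.5%) did, Lfng and Psen2, and among nuclear cofactors 2 of 12 (16.7%), Rbpjl and Spen. None of these was at least 2-fold different on both arrays. A match describes the letters only and shows no binding.

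Of the 25 listed genes of ligand and receptor processing 1 (4%) was at least 2-fold higher and 1 (4%) lower, near the shares of all genes (3.14% and 3.85%). Dtx1, a cytoplasmic E3 ligase and a known Notch target, was 4.53-fold lower at -2.29 and -2.07, against -0.69 and -0.47 in Dll1-3. Neurl1a, an E3 ligase that acts on Notch ligands, was higher at 1.66 and 1.55 (other probe 0.67), and in Dll1-3 it lay at -0.56 and -0.49. Dtx1 and Neurl1a are the 2 genes of that count. Aph1a, a subunit of the protease that cuts Notch, had discordant arrays, at 0.37 and 1.83, and another probe at 0.58. Mfng, a sugar transferase that modifies Notch receptors, was at -0.92 and -0.59, and Psen2, a catalytic subunit of that protease, was at -0.48 and -0.50. None of the 15 nuclear cofactors that passed, of 16 listed, was 2-fold different. RBPJ itself (Rbpj) was at 0.02 and 0.04, and Nrarp, a feedback inhibitor that Notch induces, was at -0.41 and -0.69.

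**Figure D2:**
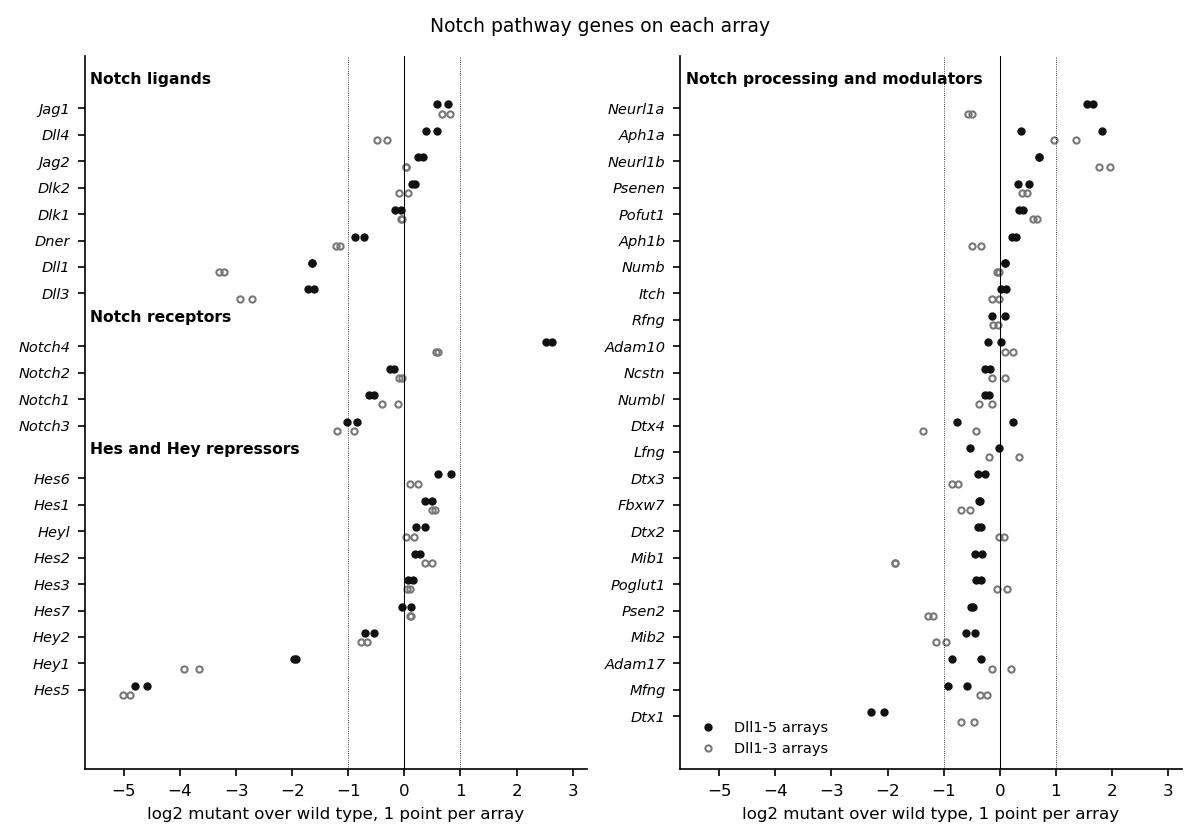
Log2 ratio of mutant over wild type for Notch ligands, receptors, Hes and Hey repressors (left) and modulators (right, 1 listed gene not drawn), 1 point per array, filled for Dll1-5 and open for Dll1-3, with dotted lines at 2-fold. Hes5, Hey1, Dll1, Dll3 and Dtx1 lie below 2-fold on both Dll1-5 arrays and Notch4 and Neurl1a above it, while Notch4, Neurl1a and Dtx1 sit well apart from their Dll1-3 points.

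Cell division genes were higher in Dll1-5 almost without exception. All 40 listed genes of mitosis and the spindle checkpoint passed the filter and were above wild type on both arrays; 18 (45%, against 3.14% of all genes) were at least 2-fold higher and none lower, with a median of 1.04. The highest was Kif20a, a kinesin of cytokinesis, at 1.77 and 1.78 (other probe 1.70). Aurka, a kinase of the spindle poles, was at 1.70 on each array, and Ube2c, the ubiquitin-conjugating enzyme of the anaphase-promoting complex, was at 1.62 and 1.81. These genes act together from late G2 to the end of division. Bub1, a checkpoint kinase, was at 1.65 and 1.64, Plk1, a kinase of mitotic entry, at 1.35 and 1.30, and Cdk1, the kinase that drives mitosis, at 1.32 and 1.48, though the other Cdk1 probe was at 0.16. Mki67, the proliferation marker Ki-67, was at 0.99 and 1.00 and so just under 2-fold. The smallest difference was that of Cenpe, a kinetochore motor, at 0.38 and 0.10. Without the loess step, after median centring alone, the list's median was 1.15 but only 2 members stayed past 2-fold on both arrays. Higher calls over all genes fell from 694 to 297 in that setting.

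Genes of the G1 to S transition and of DNA replication lay nearly as high. Of 40 listed and passing, 38 were above wild type on both arrays. At least 2-fold higher were 8 (20%, against 3.14% of all genes) and none was lower, with a median of 0.91. Cyclin D2 (Ccnd2), which commits cells to the cycle, led at 2.44 and 2.19 with other probes from 2.28 to 2.62. Ccnd1, cyclin D1, was at 1.63 and 1.67, and their partner kinase Cdk6 at 1.97 and 1.51 (other probes 0.73 and 0.87), against 0.46 and 0.33 in Dll1-3. Mcm3, a subunit of the replicative helicase, and Cdt1, which helps to load it, were at 1.62 and 1.53 and at 1.33 and 1.47. Members near wild type were Cdc25a (0.08 and -0.02), E2f3 (0.21 and -0.04) and Ccne1, cyclin E1 (0.20 on each array). After median centring 1 member of this list was past 2-fold on both arrays (297 higher over all genes), at a list median of 1.00. In Dll1-3 the medians of the mitosis and replication lists were 1.70 and 1.35; both lines were read against wild-type RNA.

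Promoters of 3 mitotic genes are shown because members of this list were higher together and mitotic promoters are known for CCAAT boxes, bound by the factor NF-Y, and for the CHR element TTTGAA. Capitals mark CCAAT or TTTGAA on either strand in the 250 bases before the start (RefSeq, GRCm38.p6): Aurka chr2:172370571-172370820, minus strand; Ube2c chr2:164769679-164769928, plus strand; Plk1 chr7:122159185-122159434, plus strand.
Aurka: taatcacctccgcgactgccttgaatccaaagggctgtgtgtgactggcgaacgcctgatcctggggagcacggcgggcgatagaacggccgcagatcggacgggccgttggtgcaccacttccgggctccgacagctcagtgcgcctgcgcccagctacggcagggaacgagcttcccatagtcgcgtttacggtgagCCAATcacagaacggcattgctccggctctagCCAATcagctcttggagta
Ube2c: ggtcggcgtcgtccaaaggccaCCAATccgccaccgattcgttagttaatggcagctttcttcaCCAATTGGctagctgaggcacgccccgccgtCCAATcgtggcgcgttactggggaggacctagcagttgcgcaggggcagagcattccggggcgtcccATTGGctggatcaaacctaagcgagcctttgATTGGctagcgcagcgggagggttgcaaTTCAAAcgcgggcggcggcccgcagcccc
Plk1: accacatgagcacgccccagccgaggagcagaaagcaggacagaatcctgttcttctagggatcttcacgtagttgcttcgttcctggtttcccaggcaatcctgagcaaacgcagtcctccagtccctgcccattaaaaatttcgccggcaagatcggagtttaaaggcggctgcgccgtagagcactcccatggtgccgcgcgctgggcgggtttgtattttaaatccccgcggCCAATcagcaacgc
In Ube2c, CCAAT matches on opposite strands overlap by 2 bases, and a TTTGAA match lay from 29 to 24 bases before the start. Of 33 mitosis genes with a window, 25 (75.8%) held CCAAT, against 37.5% of all 27025 genes, and 12 (36.4%) held TTTGAA, against 18.3%. Among those at least 2-fold higher, 12 of 14 held CCAAT and 5 of 14 held TTTGAA. The genes shown were picked after the matches were known.

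Inhibitors of the cell cycle and p53 targets were mixed: of 32 listed and passing, 4 (12.5%, against 3.14% of all genes) were at least 2-fold higher and 2 (6.25%, against 3.85%) lower, with a median of -0.14. Gadd45a, a stress and DNA damage gene, was 7.88-fold higher at 3.12 and 2.84, whereas its relative Gadd45g was 5.14-fold lower at -2.42 and -2.30. Cdkn2b, the CDK inhibitor p15, was at 2.01 and 1.99 and in Dll1-3 at -0.06 and -0.16. Its chromosomal neighbour Cdkn2a, which encodes p16 and p19Arf, was at 1.88 and 1.67 with wild-type signal well above background on 1 of 2 arrays. These inhibitors normally hold the Rb pathway and p53 active. Phlda3, a p53 target, was lower at -1.54 and -1.52, and Cdkn1b, the inhibitor p27, was at -0.98 and -1.53 with other probes at -0.05 and -0.04. Rb1 was at 0.50 and 0.59, Trp53 at 0.06 and -0.19 (other probe -0.61) and Cdkn1a, the inhibitor p21, at 0.73 and 0.43.

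Markers of neural stem cells and radial glia were lower more often than higher. Of 35 listed and passing, 9 were at least 2-fold lower (25.7%, against 3.85% of all genes) and 2 higher (5.71%, against 3.14%). Id4, an inhibitor of neurogenic helix-loop-helix factors, was 57.0-fold lower at -6.15 and -5.51, and its other probe was at -3.94. The zinc finger factor Zic1 was at -5.02 and -4.28 (other probe -4.60). Net signal of Id4 in mutant RNA was 77.7 and 52.7 and that of Zic1 44.5 and 46.0, so both were near background there. In Dll1-3 Id4 stood at -6.44 and -5.64 and Zic1 at -5.26 and -4.55. Pax6, a forebrain progenitor factor, was not well above background in Dll1-5 and at least 9.12-fold lower, with a second probe at -0.69. Lrig1, a negative regulator of EGF receptor signalling, was at -2.47 and -2.55. Slc1a3, the glial glutamate transporter, was at -2.05 and -2.38 with other probes at -0.82 and -0.66. The direction was not shared by Id1, an Id relative, at 1.31 and 1.39, or by the Hedgehog effector Gli3, at 1.25 and 1.03. Ptprz1, a phosphatase of radial glia, was saturated in both channels on both arrays and has no ratio, and its other probes lay between -0.47 and 0.07.

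As a check of the label, 10 genes that define neurospheres were read, and all of them passed the filter. Signal for Nes, nestin, and Sox2 was present in both RNAs, and both were lower in Dll1-5: Nes at -1.11 and -1.15, Sox2 at -1.54 and -1.44 with its other probe at -0.02. Vim, vimentin, was at -0.14 and -0.50 (other probe 0.38) and Msi1 at 0.14 and -0.11 (other probe -0.71). Fabp7, at 0.14 and 0.31, was saturated in mutant RNA on 1 array, where its ratio is only a lower limit. Of the 10, 4 (40%, against 3.85% of all genes) were at least 2-fold lower and none higher. After median centring alone the counts of lower genes were 1 for these, 4 for the stem cell list, 9 for astrocytes, 8 for neuronal genes and 5 for the growth factor genes given further on. Lower calls over all genes fell from 850 to 385 in that setting, so the drop was not limited to these lists.

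Astrocyte genes gave the lowest median of the lists of cell types with over 10 genes, -0.84. Of 44 listed, 43 passed, 15 (34.9%, against 3.85% of all genes) were at least 2-fold lower and 4 (9.30%, against 3.14%) higher. Agt, angiotensinogen, was 21.7-fold lower at -4.50 and -4.39, and Ncan, the brain proteoglycan neurocan, 21.3-fold lower at -4.38 and -4.45, against -3.04 and -2.92 in Dll1-3. Slc4a4, a bicarbonate transporter, was at -3.62 and -3.66, but its other probes were at -0.75 and -0.63. Apolipoprotein E (Apoe) was at -3.57 and -3.52, with wild-type signal saturated on 1 array. Cst3, cystatin C, at -2.34 and -1.95, and Sparcl1, a matricellular protein, at -1.44 and -1.18, were also saturated in wild-type RNA on 1 array, where the spot gives only a floor of the wild-type level. Ttyh1, a chloride channel, was at -3.49 and -3.66, with other probes from -1.87 to 0.52. The astrocyte filament gene Gfap was low in both RNAs, with net signals from 52.9 to 114.5, and stood at -0.08 and -0.39. S100b lay at -0.56 and -0.43 and Aqp4, the astrocyte water channel, at 0.18 and 0.20.

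A few genes of the astrocyte list were on the other side. Mt2, a metallothionein, was 8.39-fold higher at 3.18 and 2.96, while Mt1 was at -0.82 and -0.61 (other probe 0.07) and Mt3 at -0.94 and -0.89. Metallothioneins bind zinc and copper and are close in sequence, so cross-hybridisation between them was not tested. Kcnj10, an inward rectifier potassium channel, was at 2.13 and 2.11, Clu, clusterin, at 2.22 and 2.00 and the hyaluronan receptor Cd44 at 1.39 and 1.31 (other probes 0.01 and 1.40). In Dll1-3 Mt2 was at 0.75 and 0.48, Kcnj10 at 1.23 and 1.15, Clu at 0.79 and 0.53 and Cd44 at 1.91 and 1.79.

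Oligodendrocyte genes differed in both directions. Of 37 listed, 34 passed, 7 (20.6%, against 3.85% of all genes) were at least 2-fold lower and 2 (5.88%, against 3.14%) higher, with a median of -0.05. Cspg4, the NG2 proteoglycan of oligodendrocyte progenitors, was 8.74-fold higher at 2.97 and 3.28 (other probes 0.26 and 1.80). Pdgfra, the receptor tyrosine kinase of the same progenitors, was lower at -1.47 and -1.86, though its other probe was at 0.04. Gpr17, a receptor of committed progenitors, was at -3.91 and -3.95 on its brightest probe and at 0.00 on the other. Omg, a myelin glycoprotein, was at -3.24 and -3.15 and Cnp, a myelin enzyme, at -2.02 and -1.88. The lineage factors Olig2 and Sox10 lay near wild type, at -0.32 and -0.42 and at -0.09 and 0.02. Nkx2-2, another factor of the lineage, was at 1.07 and 1.12.

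Neuronal genes were mostly lower where they differed. Of 43 listed genes 39 passed, 12 (30.8%, against 3.85% of all genes) were at least 2-fold lower and 1 (2.56%, against 3.14%) higher. Elavl2, an RNA-binding protein of neurons, was at -2.96 and -2.88, against -0.86 and -1.06 in Dll1-3, but its other probe was at -0.32 in Dll1-5. Scg3, a secretory granule protein, was at -2.30 and -2.24, and Dcx, the doublecortin of young neurons, at -1.70 and -1.67 with its other probe at -0.11. Tubb3, a neuronal tubulin, lay at -0.96 and -1.06. The late neuronal markers Rbfox3 (0.10 and 0.05) and Syn1 (-0.11 and -0.16) were close to 0, and the list's median was -0.13. Rbfox3 was dim in both RNAs, with net signals from 45.4 to 57.8, so its ratio says little. The exception was the calcium-binding protein Calb2, at 1.23 and 1.07, with wild-type signal well above background on 1 of 2 arrays (net 31.6 and 25.8). Of 34 factors of neuronal fate 27 passed, 2 (7.41%, against 3.85% of all genes) were at least 2-fold lower and none higher. The lower ones were Myt1 at -2.24 and -2.02 and Sox4 at -1.35 and -1.03. Neurog1, Neurog2 and Neurod2, factors that drive neurogenesis, lay between -0.07 and 0.14.

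Markers of other cells that a culture could hold were mostly dim. None of the 17 passing genes of microglia and blood, of 21 listed, was 2-fold different, and P2ry12, Ptprc and Cx3cr1 had net signals from 8.76 to 63.1, near those of negative control spots (medians from 11.4 to 33.2). Over the passing microglia and blood genes, median net signals were 83.7 and 56.3 in mutant and 64.5 and 71.5 in wild-type RNA. Of 26 genes of endothelium, mural cells and fibroblasts 20 passed and 1 (5%, against 3.85% of all genes), Pdgfra, was lower. Of 25 genes of ependyma and choroid plexus 21 passed, 3 (14.3%, against 3.85% of all genes) were lower and 1 (4.76%, against 3.14%) higher. Among the lower ones Foxj1, the master factor of motile cilia, was at -1.70 and -1.47. Enkur and Ccdc39, cilium components, were at -1.69 and -1.79 and at -1.23 and -1.14 (other Ccdc39 probe -0.28). Of 20 genes of neural crest and Schwann cells 18 passed, with 2 (11.1%, against 3.85% of all genes) lower and 1 (5.56%, against 3.14%) higher. Among them were the endothelin receptor Ednrb at -2.03 and -2.14 and the myelin gene Pmp22 at 1.74 and 1.78. The part of other cell types in the results was not tested.

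**Figure D3:**
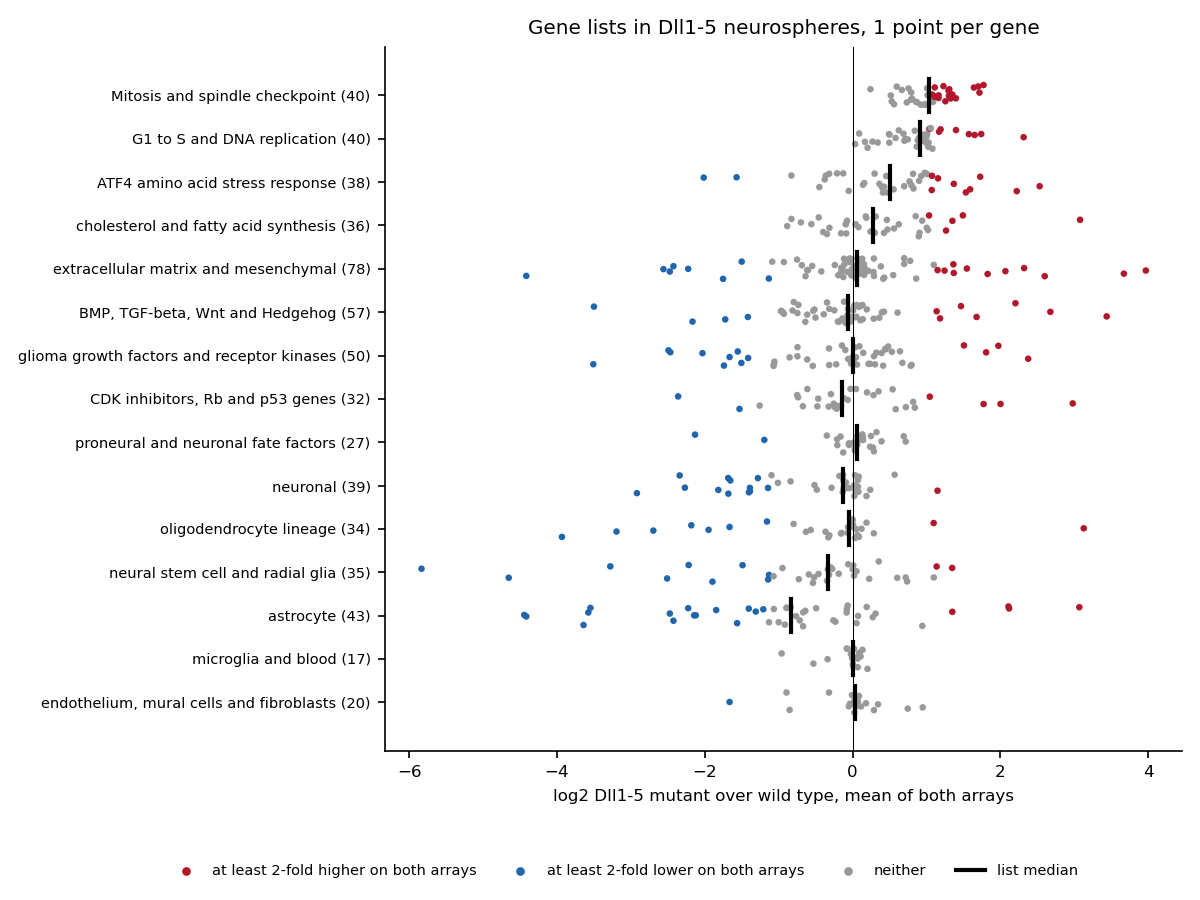
Mean log2 ratio of Dll1-5 over wild type for the members of 15 gene lists, 1 point per passing gene (number in brackets), red or blue where at least 2-fold higher or lower on both arrays, with a bar at each list's median. The mitosis and replication lists lie wholly to the right of 0, with medians of 1.04 and 0.91, and the astrocyte list has the lowest median, -0.84.

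Of 53 listed genes of growth factor signalling 50 passed, 9 (18%, against 3.85% of all genes) were at least 2-fold lower and 4 (8%, against 3.14%) higher. The median was 0.00, with 20 genes above and 21 below wild type on both arrays. Epha4, an ephrin receptor, was 11.4-fold lower at -3.67 and -3.34 (other probe -1.13), Kit at -2.63 and -2.35 and the neurotrophin receptor Ntrk2 at -2.43 and -2.50 (other probes -2.29 and -0.85). Egfr, the receptor of the EGF in the medium, was at -0.94 and -1.20, with other probes from -0.99 to -0.16. The genes past 2-fold on the higher side were Dusp6, an ERK phosphatase, at 2.49 and 2.26, Spry4 at 2.01 and 1.93, Spry1 at 1.60 and 1.41 and Igfbp2, an IGF binding protein, at 1.77 and 1.85. Dusp6 and the Sprouty genes are induced by ERK signalling and restrain it. Etv5, a transcription factor of the same response, was at 0.87 and 0.70.

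Matrix genes contained some of the largest differences in both directions, with 11 (14.1%, against 3.14% of all genes) of 78 passing genes (84 listed) at least 2-fold higher and 8 (10.3%, against 3.85%) lower. After median centring 7 were higher and 6 lower (297 and 385 over all genes). Fkbp10, an enzyme that folds collagen in the endoplasmic reticulum, was 15.6-fold higher at 3.88 and 4.05. Fbln2, fibulin 2, a glycoprotein of elastic fibres and basement membranes, was 12.7-fold higher at 3.78 and 3.56, and only at 0.68 and 0.70 in Dll1-3. Serpinh1, the collagen chaperone Hsp47, was at 2.03 and 2.10, and Lamb1, a laminin chain, at 1.92 and 1.73, against a mean of 0.29 in Dll1-3. Spp1, osteopontin, was at 2.56 and 2.64. The fibrillar collagens were dim in both RNAs, Col1a1 with a highest net signal of 57.0 and Col3a1 of 69.9, so their ratios near 0 say little: Col1a1 was at -0.01 and 0.05, Col1a2 at 0.11 and 0.07 and Col3a1 at -0.17 and 0.10. On the lower side, besides Ncan, were the brain proteoglycan Bcan at -2.43 and -2.02, the integrin Itgb8 at -2.59 and -2.52 (other probes from -0.82 to -0.25), Sparc at -2.42 and -2.43 (other probe -1.89) and Timp3, an inhibitor of metalloproteinases, at -2.51 and -2.43.

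Genes of Wnt, Hedgehog and BMP or TGF-beta signalling gave 7 higher (12.3%, against 3.14% of all genes) and 4 lower (7.02%, against 3.85%) of 57 passing (62 listed). After median centring 4 were higher and 3 lower (297 and 385 over all genes). Fzd1, a Wnt receptor, was 10.8-fold higher at 3.37 and 3.50, and Wif1, a secreted Wnt inhibitor, 6.39-fold higher at 2.63 and 2.72. Gas1, a coreceptor for Hedgehog, was at 2.36 and 2.05. Lower were Chrdl1, a BMP antagonist whose brightest probe was undetected in mutant RNA and at least 10.8-fold lower, while its other probes were at -1.55 and -0.13, and Tgfb2 at -2.16 and -2.17. The Wnt target Axin2 lay at -0.26 and -0.38, and the Hedgehog target Gli1 at 0.65 and -0.08. Of 46 passing patterning genes (54 listed) 1 (2.17%) was at least 2-fold higher, Nkx2-2, and 1 lower, the homeobox gene Irx1, at a mean of -1.33 with both arrays beyond 2-fold; all genes gave 3.14% and 3.85%.

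Genes of the amino acid stress response, controlled by the factor ATF4, were mostly above wild type. All 38 listed passed, 9 (23.7%, against 3.14% of all genes) were at least 2-fold higher and 2 (5.26%, against 3.85%) lower, with a median of 0.51. After median centring alone 2 stayed past 2-fold on the higher side (297 over all genes, against 694 with loess). Trib3, a pseudokinase that feeds back on ATF4, was 5.78-fold higher at 2.47 and 2.59 (other probe 0.80). Nupr1, a stress-induced nuclear protein, was at 2.19 and 2.26, Mthfd2, a mitochondrial folate enzyme, at 1.80 and 1.66 and Asns, asparagine synthetase, at 1.57 and 1.61. Atf4 itself was at 0.60 and 1.05. Opposite to them were Slc7a11, the cystine transporter, at -2.04 and -1.99 with other probes from -1.88 to -0.92, and Slc7a3, a transporter of basic amino acids, at -1.55 and -1.59. Chac1, an enzyme that degrades glutathione, lay at 0.21 and 0.10 in Dll1-5 and had a mean of 2.81 in Dll1-3.

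The promoters of Asns and Nupr1 are shown as members that held the letters TGATGNAA, with N any base, the composite element that ATF4 shares with C/EBP factors. Both are RefSeq windows of 250 bases before the start (GRCm38.p6), Asns at chr6:7693210-7693459 and Nupr1 at chr7:126625471-126625720, each on the minus strand, with matches on either strand in capitals.
Asns: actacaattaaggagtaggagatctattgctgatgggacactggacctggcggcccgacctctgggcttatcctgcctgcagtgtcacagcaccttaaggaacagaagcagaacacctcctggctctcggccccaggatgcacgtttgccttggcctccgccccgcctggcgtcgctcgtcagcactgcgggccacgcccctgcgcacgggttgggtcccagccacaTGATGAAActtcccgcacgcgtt
Nupr1: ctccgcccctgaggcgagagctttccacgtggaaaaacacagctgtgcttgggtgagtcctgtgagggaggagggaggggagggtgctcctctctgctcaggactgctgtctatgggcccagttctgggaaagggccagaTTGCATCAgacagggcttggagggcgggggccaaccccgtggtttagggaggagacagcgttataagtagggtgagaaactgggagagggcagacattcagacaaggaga
The match lay from 23 to 16 bases before the start of Asns and from 110 to 103 before that of Nupr1. Of 33 list members with a window 10 (30.3%) held the letters, against 3.91% of all 27025 genes. Among the 8 of them at least 2-fold different, 3 held the letters: Asns and Nupr1, which were higher, and Slc7a11, which was lower. Trib3 did not hold them.

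Sterol and lipid genes were also above wild type where they differed. Of 36 passing genes (38 listed), 5 (13.9%, against 3.14% of all genes) were at least 2-fold higher and none lower. The median was 0.27, and 1 was past 2-fold after median centring (297 higher over all genes). Lpl, lipoprotein lipase, was 8.44-fold higher at 3.11 and 3.05 (other probe 1.58), and Stard4, a cholesterol carrier, was at 1.54 and 1.45. Cyp51 and Idi1, enzymes of sterol synthesis, were at 1.18 and 1.35 and at 1.06 and 1.01, while Hmgcs1, an early enzyme of the same path, was at -0.50 and -0.61 (other probes -0.18 and -0.06). Glycolysis and hypoxia genes gave 3 higher (9.09%, against 3.14% of all genes) and 2 lower (6.06%, against 3.85%) of 33. Pdk1, a kinase that slows pyruvate oxidation, was at 1.97 and 1.82 (other probe 1.05) and Hk2, hexokinase 2, at 1.98 and 1.68. Ndrg1, a hypoxia-induced gene, was not well above background in wild-type RNA and was at least 2.15-fold higher in Dll1-5, against ratios of 3.38 and 3.90 in Dll1-3.

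Of 30 passing heat shock and unfolded protein genes 5 (16.7%, against 3.85% of all genes) were at least 2-fold lower and 1 (3.33%, against 3.14%) higher. After median centring 2 were lower and none higher (385 and 297 over all genes). With probes averaged per gene 2 were lower and 2 higher (618 and 580 over all genes). Hspb8, a small heat shock protein, was at -2.55 and -2.48, with mutant signal well above background on 1 array, and Hspa2, an Hsp70 relative, at -2.21 and -2.19 (other probe -1.43). Hsp90aa1, the inducible Hsp90, was at 1.22 and 1.23. Interferon and antigen presentation genes gave 1 higher (2.5%) and 2 lower (5%) of 40, near the shares of all genes, and a median of 0.03, beside 0.51 in Dll1-3. Cxcl10, an interferon-induced chemokine, was at 1.74 and 1.47, and H2-K1, a classical MHC class I gene, was 6.37-fold lower at -2.71 and -2.63 with other probes from -0.45 to -0.12. H2-K1 is polymorphic between mouse strains and part of a gene family with similar members, so its probe values are uncertain. B2m, the shared light chain of MHC class I, was above wild type at 1.17 and 0.92.

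Among the genes furthest below wild type, Kcnd2, which forms an A-type potassium channel, had the lowest ratio, 68.0-fold lower at -6.25 and -5.92, with its other probe at -2.17. Its net mutant signals were 61.6 and 42.4, close to negative controls, so the size of the fold is uncertain. Lrrn1, a leucine-rich repeat membrane protein of neural tissue (chromosome 6 from 108072151 to 108072210), was 36.2-fold lower at -5.15 and -5.20, but its second, dimmer probe was only at -0.31. Gramd1a, a protein that moves cholesterol to the endoplasmic reticulum (chromosome 7 from 26540716 to 26540775), was 28.7-fold lower at -5.11 and -4.58, with net mutant signals of 77.6 and 39.8. Cntn1, the neural adhesion molecule contactin, was at -3.93 and -4.06 (other probe -3.57), and Nkain4, a partner of the sodium pump, at -3.67 and -3.88 (other probe -1.54). Ppp2r2b, a regulatory subunit of the phosphatase PP2A, was at -4.21 and -3.81, with other probes from -2.86 to -0.20, and Tub, tubby, at -4.07 and -3.98 with its other probe at -0.21. A ratio taken from a single bright probe can thus stand alone: of the 671 called genes with several probes, 581 (86.6%) had all probes on the same side and 214 (31.9%) had all others at no less than 50% of the log2 size.

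On the higher side, Scrn1, secernin, was 21.3-fold higher at 4.21 and 4.62, with its other probe at 2.28. Ramp1, a partner of the CGRP receptor, was at 3.52 and 3.51 (other probe 0.73), Fxyd6, a regulator of the sodium pump, at 3.72 and 3.47 (other probe 0.90) and Car14, a membrane carbonic anhydrase, at 3.53 and 3.30. Each of these had wild-type signal above background on both arrays, between 53.6 and 504 net. Ctsc, a lysosomal protease, was at 3.33 and 3.22 and Pitpnm1, a phosphatidylinositol transfer protein, at 3.21 and 3.43. Tslp, a cytokine of epithelia, was at 3.05 and 3.13, while Crlf2, its receptor chain, was 8.69-fold lower at -3.08 and -3.16. The histone gene H2ac19, at 3.43 and 3.48 (other probe 2.80), belongs to a family of near-identical copies and is uncertain.

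For genes seen in only 1 of the 2 RNAs the difference is a bound. Not well above background in wild-type RNA were Pkp2, a desmosome protein, at least 4.27-fold higher in Dll1-5, the receptor Gpr84, at least 3.45-fold, the zinc finger gene Zfp979, at least 3.21-fold, Abhd3 at least 2.67-fold and Smim3 at least 2.50-fold. Gpr84 and Zfp979 were not well above background in either RNA on the Dll1-3 arrays. Not well above background in mutant RNA, besides Chrdl1 and Pax6, were Gnpda2, at least 4.47-fold lower, and the transcription factor Tbx18, at least 3.07-fold, whose other probe was at -0.75.

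Dll1-5 and Dll1-3 stood apart at some genes. Over 21312 genes measured in both lines, 451 (2.12%) stood above Dll1-3 by at least 1 log2 on all array pairs and 243 (1.14%) stood below by as much; gaps of at least 2 were found for 55 and 27. Between arrays of the same dye orientation, the wild-type channels of both lines were at least 2-fold apart on both pairs in 2 genes (0.00938%), and the mutant channels in 1009 (4.73%). Gramd1a was at -1.03 and -0.60 in Dll1-3, and its channels (log2, Dll1-5 minus Dll1-3) were -4.21 and -4.05 apart in mutant RNA but -0.12 and -0.07 apart in wild-type RNA. Klhl22, an adaptor of a ubiquitin ligase, was at -3.74 and -3.59 in Dll1-5 and -0.13 and -0.23 in Dll1-3, though its second probe was at -0.30 in Dll1-5. Crlf2 was at 0.03 and -0.18 in Dll1-3. Gjc1, a connexin, was 8.76-fold lower in Dll1-5 at -3.22 and -3.04 (other probe -2.39) and at 0.78 and 0.60 in Dll1-3.

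Other wide gaps came from the Dll1-3 side, with Dll1-5 close to wild type. Dbx2, a homeobox gene of ventral progenitors, was at 0.31 and 0.10 in Dll1-5 and -4.11 and -4.15 in Dll1-3. Ddt, a relative of the cytokine MIF, was at 0.27 on each array against -3.76 and -3.40, and Slco3a1, an organic anion transporter, at -0.19 and -0.05 against -4.39 and -3.30. Bag3, a co-chaperone, and Lmo1, a LIM-only factor, followed the same pattern, though the other Bag3 probe was at -0.15 in Dll1-5. Mical1, an oxidase that takes actin apart, was at 0.28 and 0.02 in Dll1-5 and 3.43 and 3.38 in Dll1-3. It was 1 of the 2 genes whose wild-type channels differed between the lines, by -1.12 and -1.13 (Dll1-5 minus Dll1-3). Prss23, a secreted protease, and Fhl1, a LIM protein, were lower in both lines but less so in Dll1-5, at -1.26 and -1.44 (other Prss23 probe -0.06) and at -2.40 and -2.72. Esx1, a homeobox gene, the linker histone gene H1f0 and Pcolce2, an enhancer of procollagen processing, were above wild type in Dll1-3 by 2.77 to 3.70 and below it in Dll1-5, where the other H1f0 probes were at -0.32 and -0.30. In Dll1-5 mutant RNA Esx1 was not well above background on either array and Pcolce2 was so on 1 array only. Net H1f0 signal there was 32.5 and 41.2, so the size of these differences is uncertain. Pitpnm1, high in Dll1-5, was at -0.19 and -0.06 in Dll1-3.

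**Figure D4:**
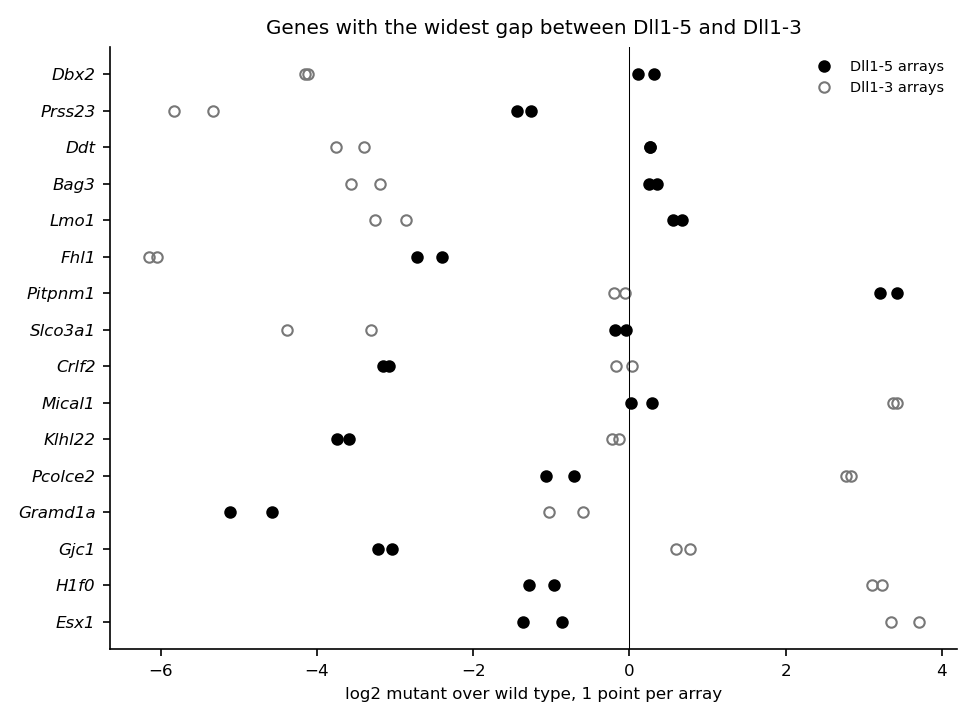
Log2 ratio of mutant over wild type for the 16 genes with the widest gaps between the lines, 1 point per array, filled for Dll1-5 and open for Dll1-3. The arrays of a line are furthest apart for Slco3a1 in Dll1-3, at -4.39 and -3.30, and Pitpnm1, Gjc1, Crlf2, Klhl22 and Gramd1a are far from 0 in Dll1-5, while Dbx2, Ddt, Bag3, Slco3a1 and Mical1 are near 0 there and far from it in Dll1-3.

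By position, ratios were uneven between chromosomes. Among genes in the brightest of 3 intensity classes, chromosome 3 had a median of -0.24 on replicate 1 and -0.28 on replicate 2, against 0.08 in Dll1-3, and 7.79% of its 1053 genes were at least 2-fold lower, against 3.85% of all genes. Chromosome 19 had medians of 0.23 and 0.24 (0.09 in Dll1-3), with 6.13% of 750 genes at least 2-fold higher and 0.80% lower. Chromosomes 8 and 16 lay at -0.21 on the mean of both arrays, and in Dll1-3 at -0.47 and -0.18, and chromosome 10 lay at 0.19. These are medians over many genes that share a chromosome. Their cause was not tested.

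**Figure D5:**
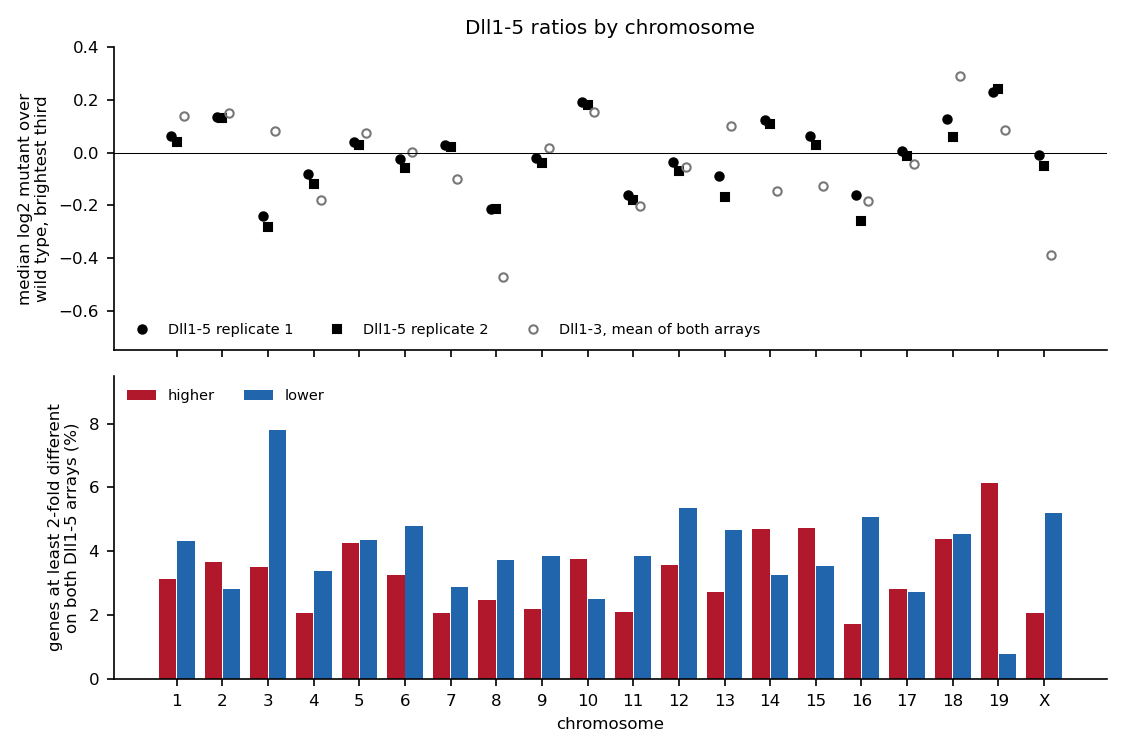
Upper panel, median log2 ratio of mutant over wild type for the brightest genes of each chromosome, filled circles and squares for the Dll1-5 arrays and open circles for the mean of the Dll1-3 arrays. Lower panel, percent of all genes of the chromosome at least 2-fold higher (red) or lower (blue) on both Dll1-5 arrays, with chromosome 3 highest among the autosomes for lower genes at 7.79% and chromosome 19 highest for higher genes at 6.13%.

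Around Dll1 on chromosome 17, 43 genes within 2 Mb passed, of which 1 was at least 2-fold higher and 2 lower, with a median of 0.01. Over all genes the shares were 3.14% and 3.85%. Within 5 Mb, 75 genes gave 1 higher and 5 lower; means ranged from -1.81 for Qk, an RNA-binding protein of glia whose other probes spanned -0.97 to 2.13, to 1.08 for Prdm9, whose other probe was at 0.04. Y-linked genes were lower in part, with 2 of 7 passing (28.6%, against 3.85% of all genes) at least 2-fold lower. Eif2s3y, a translation factor gene, was 27.2-fold lower in Dll1-5 (mean -4.76 ± 0.23), with net mutant signals of 33.6 and 34.2 against 1146 and 3286 in wild type, and Ddx3y was at -2.82 and -2.33 (other probe -1.71). Kdm5d was at -1.11 and -0.95, while Uty lay at 0.16 and -0.02 with net signals from 55.4 to 116.5. Xist, the RNA that coats an inactive X chromosome, was at 0.26 and -0.32, with net signals from 47.9 to 104.8 in both RNAs. The Dll1-3 line had the same order, with Eif2s3y at -5.24 and -4.71. What part of the other differences goes with the lower Y-linked signal was not tested, and leaving out the genes on X and Y gave 678 higher and 808 lower genes.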

How the data were processed

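RNA of both lines and of wild type was hybridised to 2-colour Agilent arrays. The deposited files hold the scanner's intensity for each of 43790 spots (2256 of them controls), read with Agilent Feature Extraction 8.1.1.1 per the submitters' processing notes, and a log10 ratio of red over green normalised by that software, per the file headers. A series table, also deposited, holds log10 ratios of wild type over mutant, a scale and direction found by comparison with the scanner ratios. Its columns had medians of -0.02 and 0.01 for Dll1-5. No source used here says how it was centred.

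Mean intensities were background-corrected (normexp, offset 50) and loess-normalised within each array (span 0.3) with limma 3.58.1 in R 4.3.3, controls and outlier spots having weight 0, and checked on simulated data. Ratios were expressed as log2 of mutant over wild-type signal. For a probe with 1 RNA not well above background, "at least" folds compare the mean levels of both RNAs, by channel after loess and Aquantile. The dimmer level was raised to a floor, the lowest level of any probe well above background, where it fell below. Among the genes given, the floor changed only Chrdl1, Pax6 and Zfp979, and elsewhere the "at least" fold is the measured one. With the arrays read as 1 pooled replicate no test is given, and a call needed 2-fold in 1 direction on both arrays. In each channel 80.0% to 81.3% of probes were above background. Precision is limited by having 2 arrays. Probes were named by accession, symbol or synonym through RefSeq where possible: 13315 genes by accession, 2365 by symbol, 1306 by synonym and 5115 by the file's own name.

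Members and gene lists were chosen with earlier results of these data known. Named genes were Dll1, Hes and Hey genes, Notch receptors and ligands, then the 14 highest and lowest with both RNAs detected, the 6 highest and lowest bounds, up to 5 per list, and the 8 widest gaps to Dll1-3 each way, passing over clone and predicted entries. Other list members named beside them were picked after their values were seen. A few genes that the rule names are not reported here.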

Additional observations from a re-analysis of the deposited data

Results flagged for a closer look

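For 12 of the genes named here both Dll1-5 arrays lay on one side of wild type and both Dll1-3 arrays on the other. The difference between the lines was not tested. Above wild type in Dll1-5 and below it in Dll1-3 were Pitpnm1 (mean log2 ratio 3.32 in Dll1-5), Cdkn2b (2.00), Neurl1a (1.61), Lmo1 (0.61), Dll4 (0.49), Bag3 (0.30), Ddt (0.27) and Dbx2 (0.21). The other Bag3 probe was below wild type in Dll1-5, at -0.15. Below wild type in Dll1-5 and above it in Dll1-3 were Gjc1 (-3.13), H1f0 (-1.12), Esx1 (-1.11) and Pcolce2 (-0.89). Mutant signal of H1f0, Esx1 and Pcolce2 was at or near background in Dll1-5. Some of the 12 genes lie close to 0 in a line, as Cdkn2b did in Dll1-3 at -0.06 and -0.16.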

How the results depend on the processing

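Of 149 named genes, 124 were at least 2-fold different on both arrays, and these 124 kept their sign in every setting run. The count of 1544 genes (694 higher, 850 lower) became 2889 (1320, 1569) with the scanner software's ratios, 2820 (1279, 1541) with the deposited table and 682 (297, 385) with median centring, which kept 641 of the 1544. At 1.5-fold it was 3800 (1823, 1977) and at 4-fold 256 (82, 174). From a single array it ranged from 1894 to 1921, with 833 to 889 higher and 1032 to 1061 lower. The other settings stayed within 1.5 times. If the arrays are instead taken as separate samples, limma called 8565 genes (4113, 4452) at an adjusted p under 0.05 with 2 residual degrees of freedom, and 12489 (6143, 6346) with the replicate block, which has 1; the replicate number is also the dye orientation, and the labels do not settle whether these arrays are independent. Gaps of at least 2 to Dll1-3 left 55 and 27 of 451 and 243 genes. Saturation touched 130 genes, 10 of them called, and 37 of the 65 genes with arrays of opposite sign over 1 log2 apart.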
